A study of Mus musculus with 4 samples.

Results

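MHC class II presentation was followed through 8 genes in bulk stomach RNA from Atp4b-cre;MycOE mice and their wild type (WT) controls. The 8 genes were taken by name from a table of 46095 mouse gene rows, after the transgenic counts had been put back beside their names as described next. They are the class II chain genes H2-Aa, H2-Ab1 and H2-Eb1, the peptide-loading genes H2-DMa, H2-DMb1 and H2-Oa, the invariant chain gene Cd74 and the transactivator gene Ciita. The series held 2 WT and 2 transgenic samples (MYC-KI replicates 1 and 2), all from C57BL/6 mice aged 12 weeks. In the transgenic animals 1 floxed c-Myc allele is switched on by Cre from the Atp4b promoter, which acts in the parietal cell lineage, the acid-secreting cells of the corpus. According to the methods Myc fl/fl mice served as controls, so both groups carry the floxed allele and only the transgenic group carries Cre. Each sample had 30260305 to 41463647 counts, and nothing in the labels says whether a sample is 1 animal, so the p-values measure the spread between these samples only.

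Antigen-presenting cells such as dendritic cells, macrophages and B cells show peptides from engulfed proteins to CD4 T cells on class II molecules. An alpha and a beta chain pair in the endoplasmic reticulum, and the invariant chain fills their groove and carries them to the endosome. There proteases such as cathepsin S trim the invariant chain, and the DM molecule exchanges its last fragment for a peptide, a step that the DO molecule holds back. CIITA, which is induced by interferon gamma in many other cells including epithelium, switches the whole set on by docking to the RFX, CREB and NF-Y factors on the X and Y boxes of the promoters.

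The row order of the table decides the values of these genes. In the deposited order the transgenic counts stand beside the wrong names, and they were assigned in row order to the names sorted by character code. Across genes, which are not independent replicates, mean log2(count + 1) of the genotypes had a Pearson's r of 0.524 before this step and 0.985 after it. Around each of the 8 genes, r over the surrounding 61 rows was 0.911 to 0.988 after re-sorting, and no shift of up to 30 rows gave a higher value. All 8 rows change place between the orders, so none of the MYC-KI values can be read from the table as deposited, while the WT values are the same in both. The number of members called went from 0 after re-sorting to 5 in the deposited order.

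Stomach identity was clear in WT, where the parietal genes Atp4a and Atp4b had 7684 to 7949 and 2490 to 2610 normalized CPM. Normalized CPM are counts scaled to the same library total in every sample, after TMM correction of that total. In MYC-KI Atp4a had 138 and 187, and Atp4b, whose promoter drives Cre, had 38.4 and 51.7. The mouse Myc row was at 31.6 and 27.2 normalized CPM (WT) against 21.7 and 24.4 (MYC-KI), lower in both transgenic samples but not called (log2 fold change -0.35, adjusted p = 0.163 by edgeR), and the table has no row named for a human transgene. WT replicate 2 had 17846 counts for the female transcript Xist, against 85 to 201 in the other 3 samples, so the sexes were not balanced between the genotypes. Forestomach squamous and smooth muscle markers also varied within each genotype. Of 17643 genes tested with edgeR, 1892 were called (adjusted p under 0.05 and a fold change over 1.5), 996 higher and 896 lower in MYC-KI, and 2272 higher and 739 lower without TMM scaling. In bulk tissue fewer cells of a type and less RNA per cell cannot be told apart.

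Promoter windows of RefSeq (GRCm38.p6) are shown because class II genes are known for X and Y boxes there. The motifs were the X box core AGCAAC, the X2 core TGACG and the Y box ATTGG. They were sought on both strands in the windows of H2-Aa, H2-Eb1, H2-DMa, H2-DMb1 and H2-Oa. The last 150 bases before the start are printed for the 4 whose stretch held a match, 5′ to 3′ on the strand of the gene, with every match in capitals.
H2-Aa: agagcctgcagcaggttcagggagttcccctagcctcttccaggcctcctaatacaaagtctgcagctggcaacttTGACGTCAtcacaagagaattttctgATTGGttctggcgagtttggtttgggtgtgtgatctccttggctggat
H2-Eb1: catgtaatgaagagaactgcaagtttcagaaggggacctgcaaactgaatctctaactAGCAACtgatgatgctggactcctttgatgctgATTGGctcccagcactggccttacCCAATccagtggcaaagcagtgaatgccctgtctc
H2-DMb1: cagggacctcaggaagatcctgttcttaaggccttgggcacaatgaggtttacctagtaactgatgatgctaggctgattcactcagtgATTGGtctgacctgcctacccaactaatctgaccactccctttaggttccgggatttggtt
H2-Oa: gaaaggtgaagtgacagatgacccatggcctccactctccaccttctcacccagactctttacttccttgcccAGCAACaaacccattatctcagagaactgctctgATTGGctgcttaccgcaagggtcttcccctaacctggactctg

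These stretches lie at chr17:34287824-34287973 (minus strand, H2-Aa), chr17:34305717-34305866 (plus, H2-Eb1), chr17:34153041-34153190 (plus, H2-DMb1) and chr17:34092229-34092378 (plus, H2-Oa). They end at the RefSeq start, which for H2-DMb1 and H2-Oa lies downstream of the GENCODE start used for the gene spans. A Y box on the gene's strand begins 48 bases before the start in H2-Aa, 59 in H2-Eb1, 61 in H2-DMb1 and 43 in H2-Oa. The X box core stands upstream of it in H2-Eb1 and H2-Oa, 92 and 77 bases before the start. In H2-Aa the X2 core is read on both strands where the 2 matches overlap, from 74 bases before the start. Of 2 windows of H2-DMa, the second held a Y box 198 bases before its start, outside the stretch of this length. Among all 32851 windows of 27025 genes, 37.4% held the Y box, 14.8% the X box core, 20.8% the X2 core and 5.84% both an X box core and a Y box. These shares are over whole windows, which are longer than the stretches printed. A match of letters is a description and not a bound site.

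The 6 H2 members lie together on chromosome 17 in GRCm38, the genome that the submitters' processing notes name as mm10. H2-Oa spans chr17:34092340-34095234, H2-DMa 34119541 to 34139101, H2-DMb1 34153072 to 34160230, H2-Ab1 34257689 to 34269419, H2-Aa 34282744 to 34287823 and H2-Eb1 34305867 to 34316674. Cd74 lies on chromosome 18, and Ciita on chromosome 16, at chr16:10480059-10528418. The H2 members had far lower levels than Cd74. Per kilobase of exon (GENCODE M21) Cd74 had 54.4 to 135 normalized CPM, whereas H2-Aa had 0.118 to 0.419, H2-Ab1 0.253 to 2.51, H2-Eb1 0.364 to 0.811 and H2-DMb1 1.26 to 1.74. H2-DMa had 0.0173 to 0.154 per kilobase and H2-Oa was at 0 in every sample. Ciita, a gene of low level, had 0.293 to 1.03.

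Low counts were not limited to class II genes in that stretch. From Angptl4 to Pou5f1 (chr17:33773750-35510772, a span whose borders were set after the values were seen) there were 104 protein-coding genes, and 35 of them (33.7%) had no count in any of the 4 samples. Of the other 19046 protein-coding genes 2103 had none. Genes with names that begin with Olfr or Vmn were left out of all these counts of protein-coding genes. At least 100 counts in every sample were reached by 8 genes of the span (7.69%), against 58.3% of the other genes, 74.0% of the 50 genes before it and 36.0% of the 50 after it. The longest run of genes without a count held 25, from Vwa7 to Atp6v1g2, and it includes Csnk2b, a casein kinase subunit, and Bag6, a chaperone, both of which most cells use. Rps18, a ribosomal protein gene inside the span, had 6.74 to 15.3 normalized CPM per kilobase, against sample medians of 52.7 to 94.8 over 27 Rps genes elsewhere. Rps28 had 0 to 0.480 there, and the lowest mean among the 27 was 0.774 (Rps13). The whole span summed to 122 and 119 CPM in WT and to 164 and 126 CPM in MYC-KI, so its counts were low in both genotypes. The cause of the low counts was not tested, and how far the H2 counts stand for the amount of their transcripts is not known here. Cd74 and Ciita are the members outside the span.

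**Figure D1:**
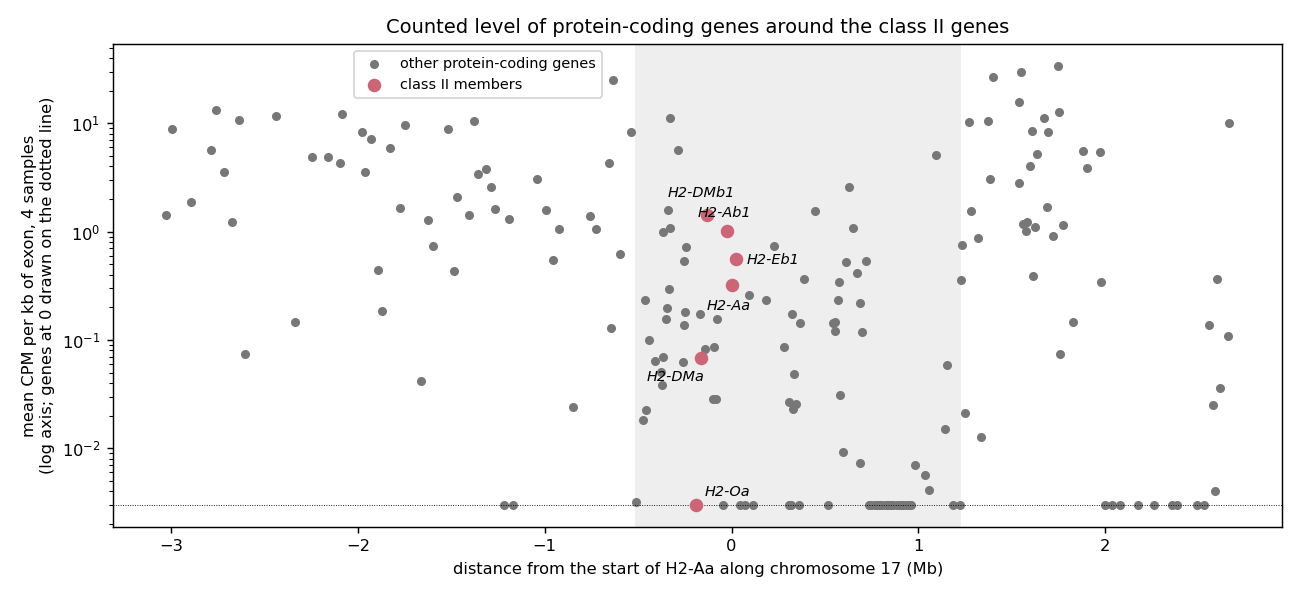
Mean normalized CPM per kilobase of exon over the 4 samples (log axis) for protein-coding genes of chromosome 17, by distance from the start of H2-Aa in Mb, with the class II members in red and genes without a count on the dotted line. The shaded span, which holds 6 of the 8 members, has 104 genes, of which 35 had no count in any sample. Genes with names that begin with Olfr or Vmn were left out.

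After re-sorting, 0 of the 6 tested members were called between the genotypes by edgeR's quasi-likelihood test, where 10.7% of all 17643 genes were called. DESeq2 also called 0 members. By edgeR 1 of the 6 (H2-Eb1) had an unadjusted p under 0.05, as did 6024 of all 17643 genes tested. The median log2 fold change of the 6 was -0.81, against 0.01 over all genes tested. The genotypes did not overlap for 4 of the 6, and this was so for 64.9% of all genes tested. H2-DMa and H2-Oa did not pass the filter on low counts.

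Cd74, the invariant chain, was by far the most deeply counted member. It had 211 and 227 normalized CPM in WT and 186 and 91.4 in MYC-KI. Both WT samples lay above both transgenic ones, but MYC-KI replicate 1 was much nearer to WT than to its own replicate. The means were 219 ± 11.4 (SD, n = 2) in WT and 139 ± 67.2 (SD, n = 2) in MYC-KI, and the log2 fold change was -0.66 (adjusted p = 0.270 by edgeR, standard error 0.36). The 95% interval ran from -1.61 to 0.30 on the log2 scale and so included 0. Without MYC-KI replicate 1 the log2 fold change was -1.26 (adjusted p = 0.0183 by edgeR), and without MYC-KI replicate 2 it was -0.23 (adjusted p = 0.212). Without WT replicate 2, the female sample, it was -0.61, in a fit where no gene of the table passed.

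Ciita, the switch of the pathway, had 8.37 and 9.86 normalized CPM in WT and 6.57 and 2.80 in MYC-KI, from 125 to 281 counts. The order of the samples was that of Cd74, with MYC-KI replicate 2 the lowest. The log2 fold change was -0.96 (standard error 0.46, 95% interval -2.20 to 0.28, adjusted p = 0.225 by edgeR). It was -1.70 without MYC-KI replicate 1 (adjusted p = 0.0419 by edgeR) and -0.47 without MYC-KI replicate 2 (adjusted p = 0.254). The calls of Cd74 and Ciita thus depended on which transgenic sample was kept. Cd74 per Ciita was 25.2 and 23.1 in WT and 28.4 and 32.7 in MYC-KI, as a ratio of CPM.

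**Figure D2:**
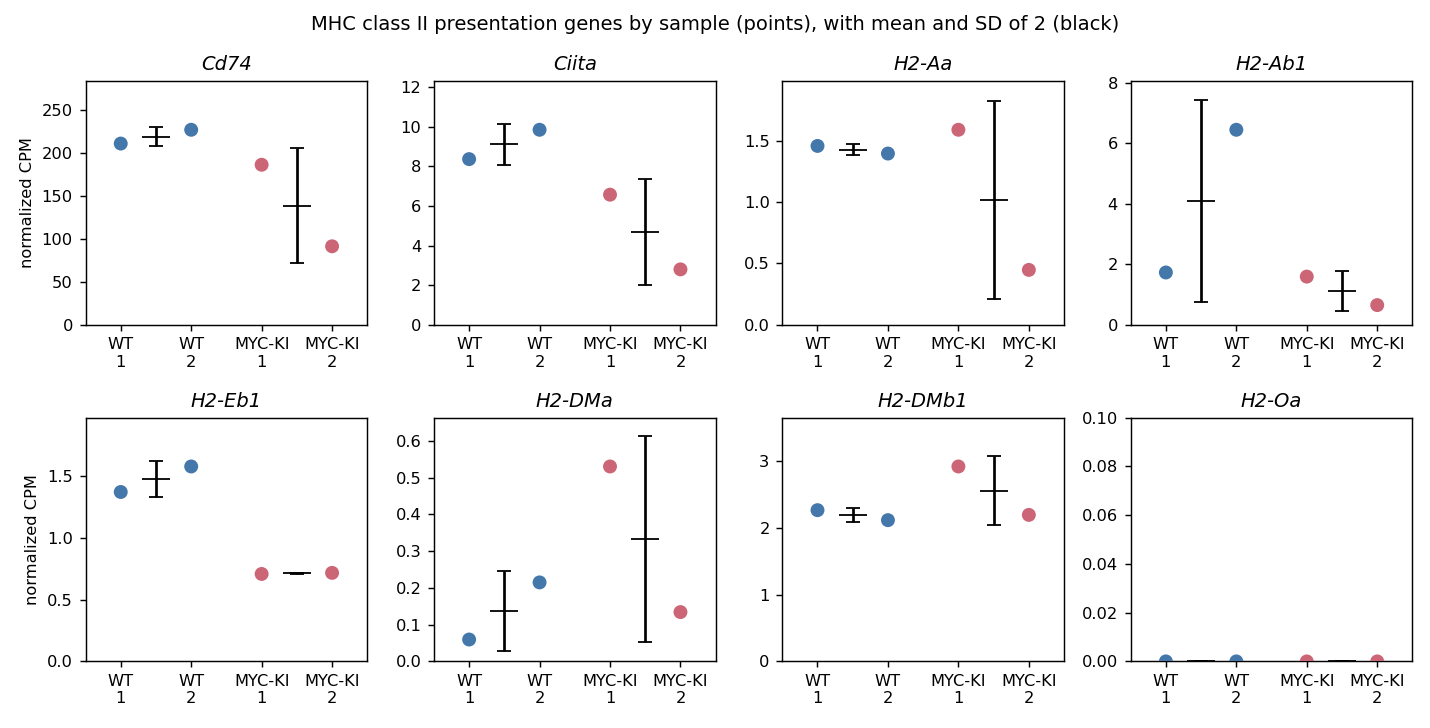
Normalized CPM of each of the 8 members in each sample (points), with the mean and SD of the 2 samples of a genotype in black, on linear axes that start at 0 and differ between genes. Cd74 and Ciita are lowest in MYC-KI replicate 2, and H2-Oa is at 0 in all 4 samples.

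H2-Aa, the alpha chain of I-A, was counted 49 and 39 times in WT samples, against 54 and 20 in MYC-KI, and the groups overlapped. The log2 fold change was -0.50 (95% interval -2.35 to 1.36, adjusted p = 0.659 by edgeR), and it turned to 0.16 without MYC-KI replicate 2. H2-Ab1, its beta chain partner, was counted 58 and 180 times in WT samples, against 54 and 29 in MYC-KI. The WT samples of H2-Ab1 lay further apart than WT replicate 1 lay from MYC-KI replicate 1. Its log2 fold change was -1.87 (95% interval -4.10 to 0.36, adjusted p = 0.199 by edgeR), and -0.63 without WT replicate 2.

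H2-Eb1, the beta chain of I-E, was counted 46 and 44 times in WT samples, against 24 and 32 in MYC-KI. Here replicates were close and the genotypes did not overlap, with 1.47 ± 0.146 (SD, n = 2) and 0.712 ± 0.00620 (SD, n = 2) normalized CPM. The log2 fold change was -1.05 (standard error 0.37, adjusted p = 0.133 by edgeR), which did not pass. C57BL/6 mice lack a working I-E alpha chain, and the row H2-Ea-ps of that pseudogene was at 0 in every sample. In the span around H2-Eb1 35 of 104 protein-coding genes were also at 0, so this 0 cannot show that a transcript is missing.

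Of the DM genes, H2-DMb1 was counted 76 and 59 times in WT samples, against 99 and 98 in MYC-KI. The log2 fold change was 0.22 (95% interval -0.64 to 1.08, adjusted p = 0.673 by edgeR), and the groups overlapped in normalized CPM, so no difference was detectable at this depth. H2-DMa, which encodes the partner chain, was counted 2 and 6 times in WT samples, against 18 and 6 in MYC-KI. H2-Oa, the alpha chain of DO, had 0 counts in every sample, which allows up to 3 counts or 0.0672 to 0.108 normalized CPM by counting error alone. Among the other class II genes, H2-DMb2 had 4 to 6 counts, H2-Ob 0 to 1 and H2-Eb2 0 to 1, and none of the 4 other class II rows was tested.

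Among factors that assemble on class II promoters or set the lineage of the presenting cells, edgeR called none and DESeq2 called 1 lower (Spi1). Of 13 listed genes 13 were tested and 0 were called in either direction, where 5.65% of all genes were called higher and 5.08% lower. Their median log2 fold change was 0.03, and 3 had an unadjusted p under 0.05 by edgeR, against 6024 of all 17643 genes tested. Rfx5, the DNA-binding RFX subunit, had 16.4 ± 0.784 (SD, n = 2) normalized CPM in WT and 20.7 ± 1.31 (SD, n = 2) in MYC-KI (log2 fold change 0.33, adjusted p = 0.163 by edgeR). Rfxank, the second RFX subunit, had 39.5 and 38.4 in WT and 27.3 and 27.6 in MYC-KI. Its log2 fold change of -0.51 had an adjusted p of 0.0421 by edgeR but stayed under the fold threshold. Nfya, Nfyb, Nfyc, Creb1, Crebbp, Ep300, Usf1 and Rfxap had log2 fold changes between -0.14 and 0.23. The lineage factors of antigen-presenting cells had wider intervals. Spi1, which encodes PU.1, had 6.64 ± 1.46 (SD, n = 2) normalized CPM in WT and 2.57 ± 0.659 (SD, n = 2) in MYC-KI (log2 fold change -1.37, adjusted p = 0.0676 by edgeR). DESeq2 called it lower (-1.38, adjusted p = 0.00474), as did edgeR without a filter on low counts (-1.36, adjusted p = 0.0377). Irf4 had 2.53 and 2.90 in WT and 1.24 and 1.30 in MYC-KI (-1.10, adjusted p = 0.0912). Irf8 had 18.5 and 19.9 in WT and 29.3 and 10.8 in MYC-KI, with a log2 fold change of 0.06 and a 95% interval of -1.26 to 1.39.

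The interferon gamma axis lies upstream of Ciita. Of 13 listed genes 12 were tested, 0 were called higher and 1 lower, against 5.08% of all genes called lower, with a median log2 fold change of -0.18. Ifng, the cytokine itself, had 0 counts in every sample. Gbp2, an interferon-induced GTPase, fell from 24.9 and 23.4 normalized CPM to 9.91 and 10.7 (log2 fold change -1.23, standard error 0.13, adjusted p = 0.0212 by edgeR). Ifngr1, the ligand-binding receptor chain, had 146 and 160 in WT and 107 and 115 in MYC-KI, and its log2 fold change of -0.47 (adjusted p = 0.0473) was under the fold threshold. Irf1, which binds the inducible promoter of Ciita, had 33.1 and 43.8 in WT and 52.2 and 22.3 in MYC-KI (-0.05, adjusted p = 0.952).

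Of 14 tested genes that process antigen or turn class II over, edgeR called 1 higher and 0 lower. Over all genes tested 5.65% were called higher and 5.08% lower. DESeq2 also called March1 lower, and the median log2 fold change of the 14 by edgeR was -0.10. Cd9, a tetraspanin of many cell types that also associates with class II, rose from 209 and 184 to 364 and 420 normalized CPM (log2 fold change 0.999, standard error 0.12, adjusted p = 0.0239 by edgeR). Ctss, the protease that cuts the invariant chain, had 36.0 and 28.9 in WT and 33.7 and 11.7 in MYC-KI (-0.52, adjusted p = 0.541). Without MYC-KI replicate 1 its log2 fold change was -1.48 (adjusted p = 0.0307 by edgeR), and without MYC-KI replicate 2 it was 0.05 (adjusted p = 0.856). Ifi30, the lysosomal thiol reductase, had 163 and 169 in WT and 172 and 172 in MYC-KI, and Lgmn, an asparaginyl endopeptidase, 60.5 ± 0.801 (SD, n = 2) against 62.3 ± 2.43 (SD, n = 2). March1, the ubiquitin ligase that removes class II from the surface, had 2.44 and 2.87 in WT and 1.03 and 1.12 in MYC-KI (-1.30, adjusted p = 0.0723 by edgeR, and -1.31, adjusted p = 0.0297 by DESeq2). With 1 WT sample left out no gene of the table was called, and the smallest adjusted p by edgeR was 0.196 without WT replicate 1 and 0.232 without WT replicate 2. The log2 fold changes were then -1.19 and -1.27 for Gbp2 and 1.09 and 0.91 for Cd9.

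Markers of the cells that carry class II were also measured. Of 10 macrophage markers 7 were called lower in MYC-KI and 0 higher, where 5.08% of all genes were called lower and 5.65% higher. With the replicate number as a block 2 were called lower. The summed level of the 10 was 388 to 392 normalized CPM in WT and 141 to 145 in MYC-KI, and no marker was at 0. Csf1r, the receptor for the macrophage growth factor, fell from 59.8 and 63.0 to 22.3 and 19.5 (log2 fold change -1.56, standard error 0.11, adjusted p = 0.0152 by edgeR), and Mrc1, the mannose receptor, from 40.8 and 43.5 to 7.46 and 9.56 (-2.31, adjusted p = 0.0155). Fcgr1 (-1.18, adjusted p = 0.103 by edgeR), Cd68 (-0.16, adjusted p = 0.773) and Mertk (-0.14, adjusted p = 0.804) were not called. Adgre1, Lyz2, C1qa, C1qb and C1qc were also called lower, with log2 fold changes of -2.27 to -1.15. The number stayed 7 without either MYC-KI sample. It was 0 without either WT sample, where no gene of the table passed, and the log2 fold changes were then -1.59 and -1.52 for Csf1r and -2.35 and -2.26 for Mrc1. Cd74 per Csf1r was 3.53 and 3.61 in WT and 8.38 and 4.68 in MYC-KI, as a ratio of CPM, and Cd74 per Lyz2 was 1.51 and 1.64 in WT and 4.14 and 1.94 in MYC-KI. The ratio depended on the marker chosen. Cd74 per Ptprc was 14.1 and 10.7 in WT and 8.52 and 6.86 in MYC-KI, and Cd74 per Itgax, a dendritic cell marker, was 27.7 and 36.4 against 32.9 and 25.8, whereas per Cd209a, another dendritic cell marker, Cd74 was 71.6 and 78.3 against 211 and 157. Adipocyte markers were also measured. They summed to 153 and 412 normalized CPM in WT and to 15.1 and 31.01 in MYC-KI. Of the 5 tested 2 were called lower (Fabp4 and Lep), against 5.08% of all genes, and the median log2 fold change was -5.22. The part of macrophage and adipocyte markers in the class II values was not tested.

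**Figure D3:**
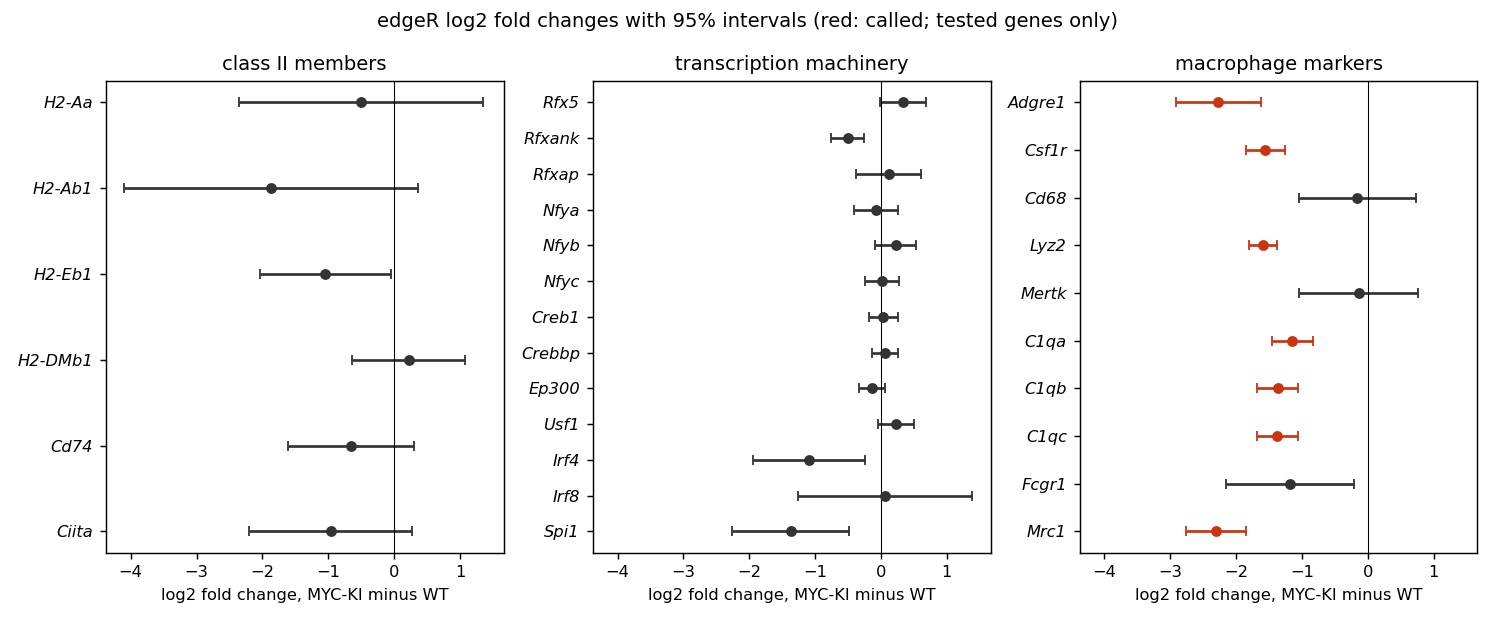
Log2 fold changes of MYC-KI against WT from edgeR (points) with 95% intervals (bars) for the 6 tested members, the 13 transcription factors and cofactors and the 10 macrophage markers, with called genes in red. The intervals of the members are wide and 5 of the 6 include 0, whereas 7 macrophage markers were called lower.

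Of 10 dendritic cell markers 7 were tested. Against 5.08% of all genes, 2 of these markers were called lower, Cd209a (log2 fold change -2.00, adjusted p = 0.0454 by edgeR) and Siglech (-2.98, adjusted p = 0.0425). Their summed level was 20.6 to 21.5 normalized CPM in WT and 10.1 to 13.4 in MYC-KI. Itgax, which encodes CD11c, had 7.63 and 6.24 in WT and 5.66 and 3.54 in MYC-KI (-0.59, adjusted p = 0.272). Batf3 went the other way, with 12 and 5 counts against 20 and 18 (0.86, adjusted p = 0.376). B cell markers summed to 4.38 to 5.38 in WT and 2.04 to 3.10 in MYC-KI, and T cell markers to 7.60 to 7.96 and 5.08 to 8.99. None of the 3 B cell and 7 T cell markers tested was called by edgeR, and Cd2 was at 0 in 3 of the 4 samples. An unadjusted p under 0.05 by edgeR was reached by 2 B cell and 0 T cell markers, against 6024 of all 17643 genes tested. Of 8 pan-leukocyte markers 1 was called lower (Coro1a, -0.99), against 5.08% of all genes. By edgeR 5 of the 8 had an unadjusted p under 0.05, against 6024 of all 17643 genes tested. Their median log2 fold change was -0.67. They summed to 215 and 230 normalized CPM in WT and 179 and 141 in MYC-KI. Tyrobp, Fcer1g, Cd53, Cd52, Lcp1 and Laptm5 had log2 fold changes of -1.01 to -0.29. Ptprc, which encodes CD45, had 15.0 and 21.2 in WT and 21.9 and 13.3 in MYC-KI (-0.04, adjusted p = 0.944).

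The transgenic samples differed from each other in Cd74, Ciita and some other genes, which are examples chosen after the values were seen. MYC-KI replicate 2 had 0.490 times the CPM of replicate 1 for Cd74, 0.426 for Ciita, 0.428 for Irf1, 0.369 for Irf8, 0.346 for Ctss and 0.440 for B2m, the light chain of class I. The same ratio between the WT replicates was 0.804 to 1.32 for these genes. Of all 17643 genes tested, 5.24% had a lower ratio between the transgenic samples than Cd74 and 4.18% a lower one than Ciita. The ratio was 0.609 for Ptprc, 0.877 for Csf1r, 1.05 for Lyz2, 0.914 for C1qa and 1.09 for Rfx5 between the transgenic samples. Squamous markers summed to 2264 and 1266 CPM in WT and to 877 and 3966 in MYC-KI, and smooth muscle markers to 7640 and 4827 in WT and to 2479 and 5270 in MYC-KI. Smooth muscle RNA was thus highest in a WT sample, and the part of either tissue in these values was not tested. Among class I genes outside the chromosome 17 span, B2m had 278 and 240 normalized CPM in WT and 298 and 131 in MYC-KI (log2 fold change -0.27, adjusted p = 0.689 by edgeR), and Nlrc5, the class I transactivator, 6.82 and 7.92 against 8.40 and 5.22.

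**Figure D4:**
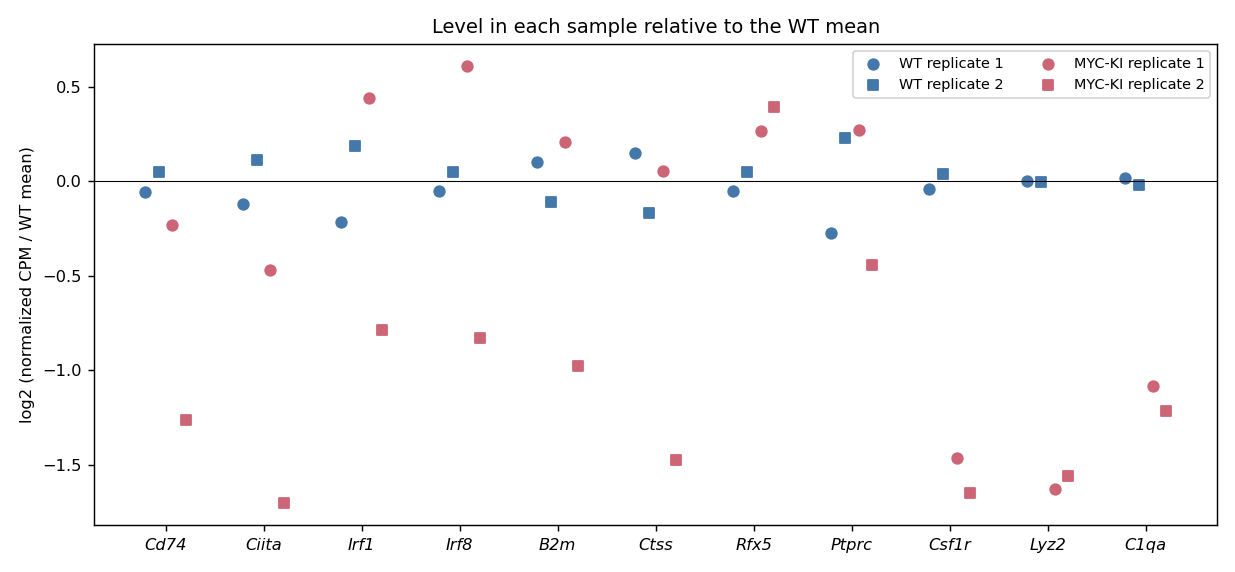
Normalized CPM of 11 genes in each sample, as log2 of the ratio to the WT mean (blue WT, red MYC-KI, circles replicate 1, squares replicate 2). Cd74, Ciita, Irf1, Irf8, B2m and Ctss are lowest in MYC-KI replicate 2, while Csf1r, Lyz2 and C1qa are low in both transgenic samples.

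The profile of the members over the 4 samples was compared with that of 10880 other genes of an average log2 CPM of at least 3. The mean centred log2 CPM of the 6 tested members was 0.23 and 0.60 in WT and 0.05 and -0.88 in MYC-KI. The genes nearest to it were Piezo2, Sord, St3gal6, Shroom1 and Fes, with root mean square differences of 0.0995 to 0.118 on the log2 scale over 4 samples. With so few samples this likeness is a description only.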

How the data were processed

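Gastric RNA of 4 samples was sequenced. The authors deposited raw read counts per gene symbol, 1 column a sample, without normalization. The submitters' processing notes name HISAT2 and mm10, and the counter, its strand setting and the annotation are not given in the sources used here. Row by row, the MYC-KI columns were given the names sorted by character code, and WT columns were left as they were. The test was edgeR 4.0.16 under R 4.3.3 (filterByExpr on genotype, TMM, glmQLFit and glmQLFTest, Benjamini-Hochberg over all genes tested) and called where the adjusted p was under 0.05 and the log2 fold change lay beyond 0.585 in either direction. The standard error is the absolute log2 fold change over the square root of F. DESeq2 1.42.0 and other settings were alternatives, and the tests were checked on simulated counts. Exonic lengths are unions of GENCODE M21 exons, and 33912 symbols (73.6%) had a position. Floors from counts cover counting error only. The intervals of the log2 fold changes come from the edgeR fit and so include the spread between samples. The promoter search left out Cd74 because of its chromosome, and no window was found for H2-Ab1 or Ciita. Members, lists and motifs were chosen with earlier results of these data known. All 8 members and all genes of the class II pathway lists could be named, and from the marker lists the called genes with others, such as Ptprc, Itgax, B2m and Cd86, chosen after their values were seen. The values of 1 listed gene are not reported here. The nearest genes were the 5 with the smallest root mean square difference.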

Additional observations from a re-analysis of the deposited data

How the results depend on the processing

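In the deposited row order 5 members were called, with log2 fold changes of -8.65 for H2-Eb1, -9.23 for H2-DMb1 (reversed), -3.72 for Cd74 and -4.48 for Ciita, and the fifth was H2-Oa. There 18580 genes of the table were called, and of the class II pathway genes (other class II genes, transcription machinery, interferon gamma axis and processing) 8 were called higher and 16 lower. After re-sorting, all genes called numbered 3234 under DESeq2, 3011 without TMM scaling (share higher 75.5% in place of 52.6%, median log2 fold change of all genes 0.23 in place of 0.01), 1113 at a fold change over 2 and 114 with the replicate number as a block. The pathway genes called higher went from 1 to 0 under the block and at a fold change over 2. Those called lower went from 1 to 3 under DESeq2 and without a fold threshold, 2 without a filter on low counts and 0 under the block. Macrophage markers called lower were 2 under the block. The replicate numbers share no stated litter or day, and over genes the deviations of same-numbered samples had r = 0.067. No member was called under the block, DESeq2, either scaling, either filter or either fold threshold. With 1 sample omitted at a time, and a lone sample assumed to vary like the other group, members called ranged from 0 to 2, pathway genes from 0 to 1 higher and 0 to 2 lower, macrophage markers from 0 to 7 and all genes from 0 to 2470 (0 without either WT sample, where the smallest adjusted p was 0.196 or more). The log2 fold change then ranged from -1.67 to 0.16 for H2-Aa (0.16 without MYC-KI replicate 2), from -2.64 to -0.63 for H2-Ab1, from -1.14 to -0.94 for H2-Eb1, from 0.0036 to 0.41 for H2-DMb1, from -1.26 to -0.23 for Cd74 and from -1.70 to -0.47 for Ciita. The 4 tested H2 members had at most 180 counts in a sample, and H2-Ab1 and H2-Aa also varied between replicates.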

Other observations

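Costimulatory and checkpoint genes, which act beside class II at the contact with T cells, did not pass the test. Of 8 tested, 0 were called by edgeR, against 10.7% of all genes, and the median log2 fold change was -0.53. An unadjusted p under 0.05 by edgeR was reached by 2 of them, against 6024 of all 17643 genes tested. Cd86 had 3.52 and 2.26 normalized CPM in WT and 1.33 and 0.918 in MYC-KI (log2 fold change -1.37, adjusted p = 0.103 by edgeR), and Icosl, a ligand also made by epithelium, 18.9 and 20.8 against 12.5 and 14.0 (-0.58, adjusted p = 0.0710). Cd80, the partner of Cd86 as a ligand of CD28, was counted 18 and 19 times in WT samples, against 15 and 61 in MYC-KI (0.58, adjusted p = 0.595), and the genotypes overlapped. Cd274, which encodes PD-L1, had 3.58 and 5.02 in WT and 4.28 and 2.13 in MYC-KI. Of 10 lymphoid tissue genes listed, 4 were tested and 0 called by edgeR, with 2 at an unadjusted p under 0.05. Lta and Ltb were at 0 but lie in the chromosome 17 span, in the run of genes without a count, and Cxcl13, the chemokine of B cell follicles, was counted 68 and 88 times in WT samples, against 6 and 21 in MYC-KI (log2 fold change -2.96, adjusted p = 0.0521 by edgeR). Within the chromosome 17 span 40 genes were tested and, against 10.7% over all genes, 1 was called, Hspa1b. Its near-identical neighbour Hspa1a could share its reads, so its value is uncertain.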
